A study of Ictidomys tridecemlineatus with 15 samples.

Results

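The comparison described here sets the liver of summer active squirrels (SA) against that of hibernating squirrels during interbout arousal (IBA), the short warm period between bouts of torpor. Global run-on sequencing (GRO-seq) reads the RNA that engaged polymerases are making in isolated nuclei, and so counts polymerase activity on a gene rather than accumulated transcript. The members are 6 of the 14 libraries with deposited counts (15 were labelled), 3 SA (replicates 1, 2 and 3) and 3 IBA, each from the liver of a different female 13-lined ground squirrel (Ictidomys tridecemlineatus) from a laboratory breeding colony, and they were chosen by the hibernation state in the labels. The animals carried implanted body temperature recorders, and the nuclei came from frozen liver. The remaining libraries, from entrance into torpor (Ent), early torpor (ET) and late torpor (LT), entered the fit to help estimate the spread and are shown where the same units are followed through them.

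SA and IBA animals were both warm when sampled. SA animals were taken before hibernation began, in a warm, lit room with food, whereas IBA animals had no food in a cold, dark room and had rewarmed from torpor a few hours earlier, according to the study's animal records. Season, feeding, light, ambient temperature and recent rewarming therefore cannot be told apart in this comparison. SA replicate 1 was collected in an earlier year than the remaining SA animals and all IBA animals.

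The liver stores and exports fuel. In the fed state it turns dietary carbohydrate into fatty acids through acetyl-CoA and malonyl-CoA, builds cholesterol and bile acids, and disposes of dietary nitrogen as urea. In a long fast it burns fatty acids in mitochondria and peroxisomes, releases ketone bodies and glucose, and spares amino acids. Hibernators are known for a yearly switch between these conditions, with a summer of fattening and a winter spent on stored fat.

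The counts were taken by the authors on gene bodies redrawn from the GRO-seq reads, and genes whose transcription ran into each other were merged into units with a colon in the name. Single-gene units (4705) and merged units (1619) were therefore kept apart, since the counts of a merged unit cannot be divided among its genes. Values are CPM, counts scaled to a library total of 1000000 after edgeR's TMM scaling, in the order replicate 1, 2 and 3. Every difference is therefore relative to the rest of the library. A change in total transcription between SA and IBA would not be seen, a limit the authors state for scaling by library size. Differences are log2 fold changes, IBA minus SA, given as value ± standard error (SE) from edgeR's quasi-likelihood fit, with its p adjusted by the Benjamini-Hochberg method over all 6324 units. A unit is said to have risen or fallen in IBA where the adjusted p was 0.05 or less.

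The SA libraries held 4453456, 3713883 and 8884763 counts and the IBA libraries 3734769, 4864097 and 6366886. Rank correlations between libraries were 0.957 to 0.974 within IBA, 0.901 to 0.944 within SA and 0.879 to 0.916 between them, as a description over the 4705 single-gene units. The biological coefficient of variation was 0.274 in SA and 0.16 in IBA, so SA animals differed more from each other. Of 12 hepatocyte marker symbols, 8 had a single-gene unit, whose summed level was 11908 to 21337 CPM in SA and 12566 to 15186 in IBA, and 1 of them, Tf, was called. The 4 endothelial units summed to 213 to 266 CPM in SA and 228 to 258 in IBA, Cd14 was the single macrophage marker with a unit of its own, and no lymphocyte, neutrophil or erythroid marker had one. Fewer cells of a type and less transcription per cell cannot be told apart in whole liver.

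Among single-gene units, 127 rose in IBA (2.7% of those tested) and 135 fell (2.87%), together 5.57%. Among merged units 23 rose (1.42%) and 45 fell (2.78%), together 4.2%. More single-gene units fell than rose by 4-fold or more, 34 (0.723%) against 9 (0.191%). The median over all single-gene units was -0.01 on the log2 scale and over all merged units -0.07, which is the background for the gene programmes described next. At a stricter threshold of 0.001 edgeR called 1 single-gene unit (0.0213%) and 0 merged units (0.0%), although 1103 (23.4%) and 290 (17.9%) had an unadjusted p of 0.05 or less, and DESeq2 called 175 and 46 at 0.001 and limma-voom 1 and 0. Of the 262 single-gene calls, 82 were also made with each SA and each IBA library left out in turn. Leaving out an IBA library cost the most calls: without IBA replicate 1, 2 or 3 there were 117, 165 and 94 single-gene calls and 31, 40 and 21 merged calls.

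**Figure D1:**
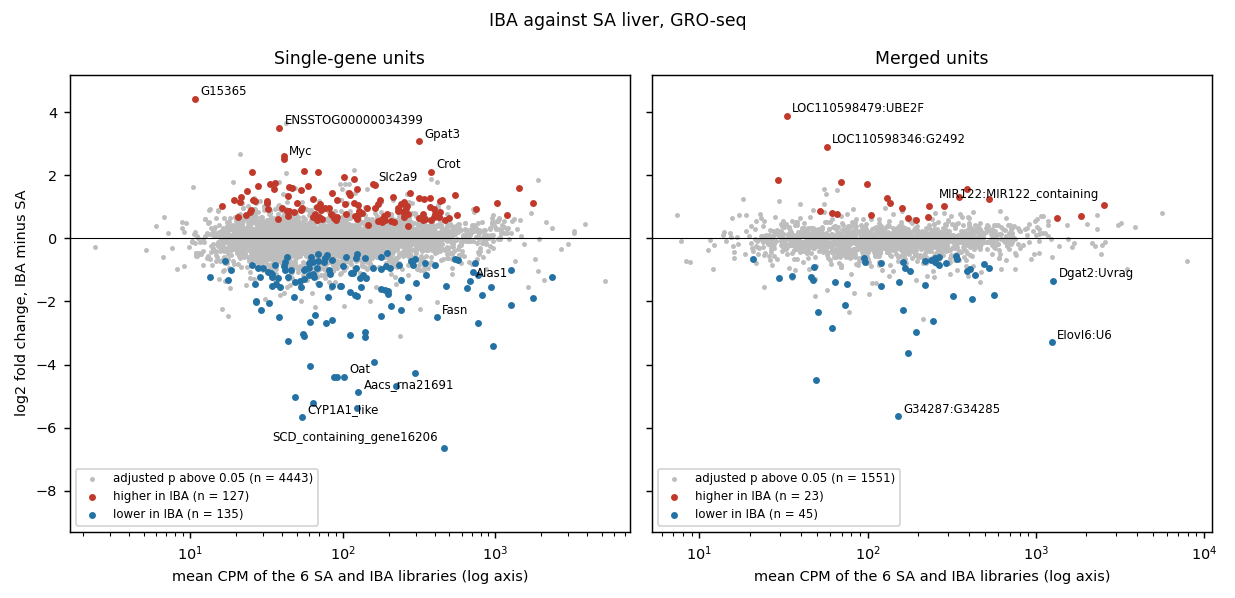
Each point is a unit, with its mean CPM over the 6 SA and IBA libraries on a log axis and its log2 fold change (IBA minus SA) on the vertical axis, for single-gene units (left) and merged units (right). Red units were called higher in IBA (127 and 23) and blue units lower (135 and 45), and the falls reach further from 0 than the rises.

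Many genes of fatty acid synthesis fell in IBA. Of its 21 single-gene units 10 fell (47.6%, against 2.87% of all single-gene units), and the median was -0.81 against -0.01 over all. The fallen units span the pathway, from the supply of acetyl-CoA (Acly, Acss2) and malonyl-CoA (Acaca, Acacb) through fatty acid synthase (Fasn) to the desaturation step (units named for SCD), with lipin 1 (Lpin1) of the glyceride branch. DESeq2 and limma-voom also called 10 and 10 lower, and the list had 6 falls without IBA replicate 1 or 3.

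The deepest fall of any single-gene unit was that of SCD_containing_gene16206, a stearoyl-CoA desaturase unit of the kind that puts the double bond into newly made fatty acids (Itri1:33657946-33672214, plus strand, HiC_Itri_2). It had 1465, 643 and 621 CPM in the SA libraries and 6.54, 5.23 and 14.4 in the IBA libraries. All SA libraries stood above all IBA libraries, by a fitted 101-fold, and the log2 fold change was -6.66 ± 0.82, adjusted p = 0.00227. Beside it lie SCD_like (Itri1:33733397-33745897, minus strand) and SCD_containing_gene16210 (Itri1:33793710-33806869, plus strand). SCD_like had 515, 106 and 109 CPM in the SA libraries and 1.42, 8.15 and 7.02 in the IBA libraries. SCD_containing_gene16210 had 134, 53.9 and 49.8 CPM in the SA libraries and 9.38, 9.41 and 6.39 in the IBA libraries. The groups did not overlap in either, and the log2 fold changes were -5.39 ± 0.89, adjusted p = 0.00498 and -3.25 ± 0.48, adjusted p = 0.00341. The authors' methods describe counting reads with a single alignment, which leaves out reads that fit several copies equally, so the levels of these 3 units are uncertain. Whether the recount on redrawn gene bodies kept that step is not said separately. All 3 units moved the same way.

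Fasn, which builds palmitate from malonyl-CoA, had 940.5, 665 and 506 CPM in the SA libraries and 83.6, 169.5 and 119 in the IBA libraries (-2.50 ± 0.38, adjusted p = 0.00377). Acly, which cleaves citrate into cytosolic acetyl-CoA, had 613, 234 and 169.7 CPM in the SA libraries and 70.5, 78.2 and 82.4 in the IBA libraries (-2.13 ± 0.37, adjusted p = 0.00601). In both genes every IBA library lay below every SA library, and SA replicate 1 was highest. Aacs_rna21691, a unit of the acetoacetyl-CoA synthetase that feeds ketone bodies into lipid synthesis, had 520.4, 160.1 and 54.4 CPM in the SA libraries and 6.82, 9.41 and 8.78 in the IBA libraries (-4.86 ± 0.77, adjusted p = 0.00412). The merged unit AACSP1_containing:G17377:Aacs_rna21691_alt on the same chromosome carries the same transcript name and also fell (-4.50). These 3 genes and all 3 SCD units were called without each of the 6 libraries in turn.

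The acetyl-CoA carboxylases also fell. Acaca, the cytosolic form, had 2174, 1281 and 761 CPM in the SA libraries and 492, 523 and 422 in the IBA libraries (-1.55 ± 0.32, adjusted p = 0.0144), and Acacb, the form whose malonyl-CoA restrains mitochondrial fatty acid uptake, had 1963, 1724 and 306 CPM in the SA libraries and 203, 179 and 238 in the IBA libraries (-2.69 ± 0.58, adjusted p = 0.0175). Acacb was uneven in SA, where replicate 3 stood near the IBA level. Acss2, which activates acetate, had 776, 268 and 210.3 CPM in the SA libraries and 130.4, 106 and 110.3 in the IBA libraries (-1.86 ± 0.41, adjusted p = 0.0196), and Lpin1 had 2417, 4496 and 1359.6 CPM in the SA libraries and 916, 714 and 595 in the IBA libraries (-1.90 ± 0.45, adjusted p = 0.0294). The call of Acaca was lost without IBA replicate 1 or 3 (adjusted p = 0.0555 and 0.0783), and those of Acacb and Acss2 without any IBA replicate (Acacb, adjusted p = 0.0726, 0.0726 and 0.0735; Acss2, 0.0618, 0.0738 and 0.0894). Acss2 was also lost in edgeR with the season of collection as a factor (adjusted p = 0.0564). Lpin1 was lost without SA replicate 2 or IBA replicate 1, 2 or 3 (adjusted p = 0.0773, 0.0701, 0.0931 and 0.131).

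Of the regulators named, Srebf1 and Thrsp did not pass the test and Scap did. Srebf1, the transcription factor that drives lipogenic genes, had 416, 193 and 446 CPM in the SA libraries and 106, 391.71 and 225 in the IBA libraries, with overlapping groups (-0.55 ± 0.46, adjusted p = 0.535). Thrsp, the lipogenic regulator Spot 14, had 283, 107 and 253 CPM in the SA libraries and 105, 223 and 211 in the IBA libraries, again overlapping (-0.25 ± 0.38, adjusted p = 0.752). Scap, the escort that carries SREBP proteins to the Golgi, had 96.2, 112 and 115 CPM in the SA libraries and 54.8, 56.0 and 52.0 in the IBA libraries (-0.99 ± 0.15, adjusted p = 0.00355), with tight groups and the call kept without each library in turn. Among the 10 fallen units of the list, SA replicate 1 was the highest SA library in 9 and SA replicate 3 the lowest in 9. SA replicate 1 was also the SA animal collected in an earlier year. Without it the list kept 10 falls and a median of -0.79. Several falls were then smaller, with log2 fold changes of -1.39 in Acly, -3.66 in Aacs_rna21691, -4.22 in SCD_like and -1.09 in Acaca.

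**Figure D2:**
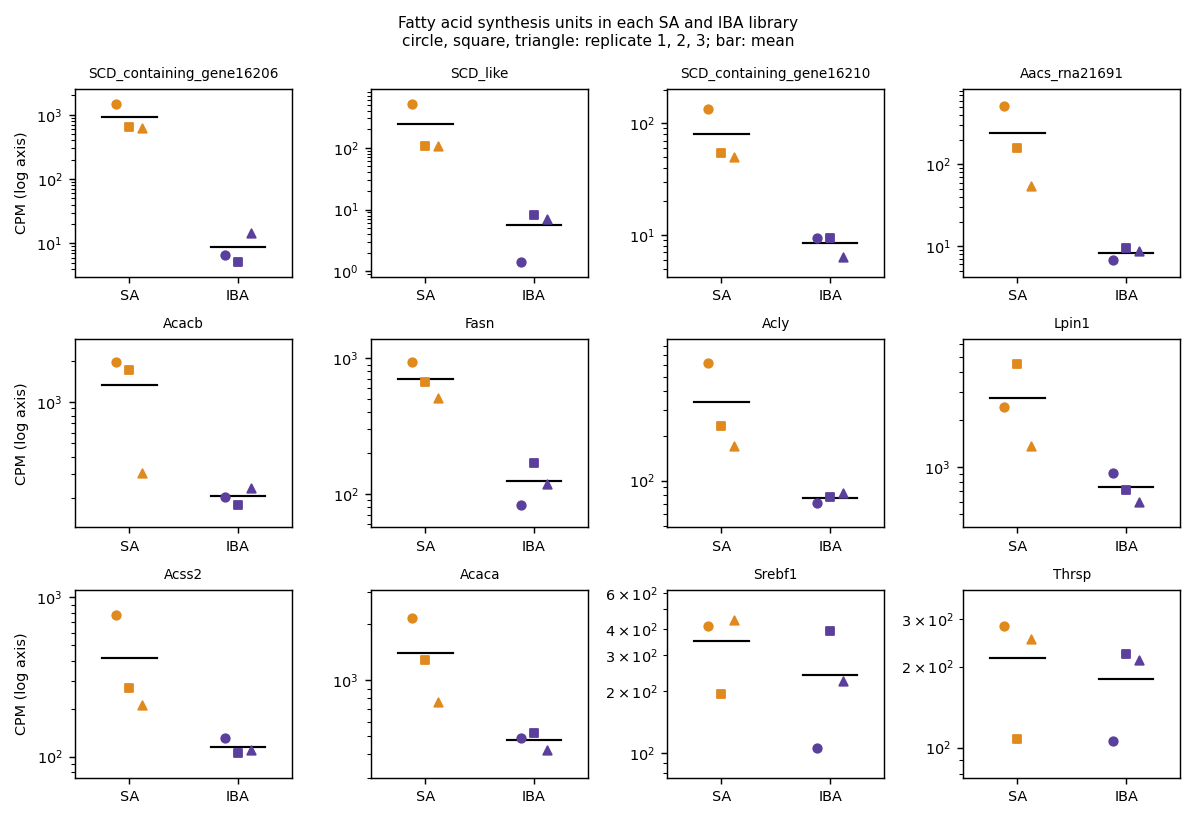
CPM (log axis) of 12 fatty acid synthesis units in each SA and IBA library, with a marker for each replicate and a bar at the group mean. In the 10 units that fell every SA library stands above every IBA library, whereas in Srebf1 and Thrsp the groups overlap.

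Cholesterol and bile acid genes gave fewer calls. Of 16 single-gene units of cholesterol synthesis and uptake 2 fell (12.5%), Insig1 and Scap, and the median was -0.33. DESeq2 called 5 lower and limma-voom 1, and the list had 1 fall without IBA replicate 1, 2 or 3, where Scap remained. Insig1, which holds SREBP in the endoplasmic reticulum, had 116, 534 and 262 CPM in the SA libraries and 73.0, 75.9 and 119.7 in the IBA libraries (-1.76 ± 0.43, adjusted p = 0.0314). SA replicate 1 lay inside the IBA range, and the call was lost without SA replicate 2 or IBA replicate 1, 2 or 3 (adjusted p = 0.0812, 0.122, 0.107 and 0.0659). Hmgcs1, an early enzyme of cholesterol synthesis, had overlapping groups (-0.90 ± 0.41, adjusted p = 0.22).

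Of 13 units of bile acid synthesis and export 2 fell (15.4%), both early enzymes of synthesis, with a list median of -0.24. CYP7A1, the rate-limiting enzyme of the classical pathway, had 136, 7.15 and 158 CPM in the SA libraries and 11.4, 10.2 and 13.7 in the IBA libraries (-3.09 ± 0.80, adjusted p = 0.0438). CYP8B1, which makes the cholic acid branch, had 209, 21.2 and 174 CPM in the SA libraries and 19.9, 19.0 and 23.6 in the IBA libraries (-2.69 ± 0.59, adjusted p = 0.0198). In both genes SA replicates 1 and 3 stood far above IBA while SA replicate 2 lay below the IBA range in CYP7A1 and within it in CYP8B1. With a library left out, both were called only without SA replicate 2 (adjusted p = 0.00181 and 0.000329). The list had 0 falls without SA replicate 1 or 3 or IBA replicate 1, 2 or 3, and limma-voom called 0 of it where DESeq2 called 2. The bile acid transporters Abcb11 (0.15 ± 0.31, adjusted p = 0.827) and Slc10a1 (-0.24 ± 0.27, adjusted p = 0.658) had overlapping groups.

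A few genes of fat oxidation rose. Of 22 single-gene units of ketogenesis and fatty acid oxidation 3 rose (13.6%, against 2.7% of all), and the median was 0.47. In edgeR 12 of the 22 had an unadjusted p of 0.05 or less, against 23.4% of all single-gene units. DESeq2 called 5 higher and 1 lower, and limma-voom 4 higher. Crot, which puts peroxisomally shortened fatty acids onto carnitine, had 135, 205 and 88.6 CPM in the SA libraries and 552, 601 and 692 in the IBA libraries, a 4.33-fold rise (2.11 ± 0.36, adjusted p = 0.00573) that was called without each library in turn. Decr1, which handles unsaturated fatty acids in mitochondrial oxidation, rose by 1.65-fold (0.72 ± 0.18, adjusted p = 0.0373), and Hadh, a mitochondrial hydroxyacyl-CoA dehydrogenase, by 1.51-fold (0.59 ± 0.14, adjusted p = 0.0323). These smaller rises depended on the libraries: Decr1 was called with a library left out only without SA replicate 1 (adjusted p = 0.0233), and Hadh only without SA replicate 2 (adjusted p = 0.0373), and the list had 1 fall without SA replicate 2 and 1 rise without IBA replicate 1, 2 or 3. Merged units with a gene of this list gave no rise: of 16 edgeR called 0, with 3 at an unadjusted p of 0.05 or less and 0 called by DESeq2 or limma-voom, and their median was -0.03 against -0.07 over all merged units.

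Several genes of the same programme had higher values in every IBA library than in any SA library without passing the test. Fgf21, a hormone that the fasting liver releases, had 11.6, 12.9 and 23.3 CPM in the SA libraries and 65.4, 76.5 and 65.0 in the IBA libraries (2.09 ± 0.88, adjusted p = 0.184). Bdh1, a ketone body dehydrogenase, had 146, 157 and 241 CPM in the SA libraries and 323, 373 and 339 in the IBA libraries (0.93 ± 0.26, adjusted p = 0.0578), and the trifunctional protein units Hadha and Hadhb had log2 fold changes of 0.48 ± 0.16, adjusted p = 0.111 and 0.57 ± 0.19, adjusted p = 0.103. Non-overlap of that kind was common: 15.5% of all single-gene units had all IBA libraries above all SA libraries and 13.3% all below (merged units, 10.9% and 14.5%). Pdk4, the kinase that shuts pyruvate out of oxidation, had 175, 229.9 and 201 CPM in the SA libraries and 141, 41.2 and 67.9 in the IBA libraries, lower in every IBA library but not called (-1.29 ± 0.64, adjusted p = 0.263). Ppargc1a, a coactivator of oxidative and gluconeogenic genes, had overlapping groups (-0.16 ± 0.28, adjusted p = 0.794).

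Among the largest rises with a gene symbol were enzymes of triglyceride and sterol ester formation and of fatty acid elongation. Gpat3, a glycerol-3-phosphate acyltransferase of triglyceride synthesis (Itri14:4926254-5004367, minus strand), had 72.5, 95.7 and 32.0 CPM in the SA libraries and 695, 457 and 533 in the IBA libraries, an 8.48-fold rise (3.08 ± 0.44, adjusted p = 0.00294). Soat2, which esterifies cholesterol for storage and lipoprotein export, had 9.64, 13.5 and 6.42 CPM in the SA libraries and 29.0, 48.1 and 46.3 in the IBA libraries (2.0997 ± 0.30, adjusted p = 0.00294). Elovl2, the elongase of very long polyunsaturated fatty acids, had 59.0, 30.3 and 60.4 CPM in the SA libraries and 233, 149.9 and 179 in the IBA libraries (1.90 ± 0.33, adjusted p = 0.00621). In each of these genes the lowest IBA library stood clear of the highest SA library.

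Slc2a9, a urate transporter, had 67.0, 92.4 and 60.1 CPM in the SA libraries and 210.3, 292 and 220.2 in the IBA libraries (1.72 ± 0.21, adjusted p = 0.00227). Trank1 had 57.8, 49.5 and 19.96 CPM in the SA libraries and 153, 166 and 165 in the IBA libraries (1.94 ± 0.31, adjusted p = 0.00412), and COLCA1_containing had 15.9, 18.4 and 12.4 CPM in the SA libraries and 50.9, 47.2 and 55.4 in the IBA libraries (1.73 ± 0.24, adjusted p = 0.00294). Myc, the growth-related transcription factor, had 8.68, 24.5 and 4.87 CPM in the SA libraries and 52.9, 82.1 and 75.04 in the IBA libraries (2.53 ± 0.46, adjusted p = 0.00847). In SA its level was low and uneven, with replicate 2 highest, and every IBA library lay above that. With Crot, described above, these are the 8 largest rises with a symbol, and all 8 were called without each library in turn.

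**Figure D3:**
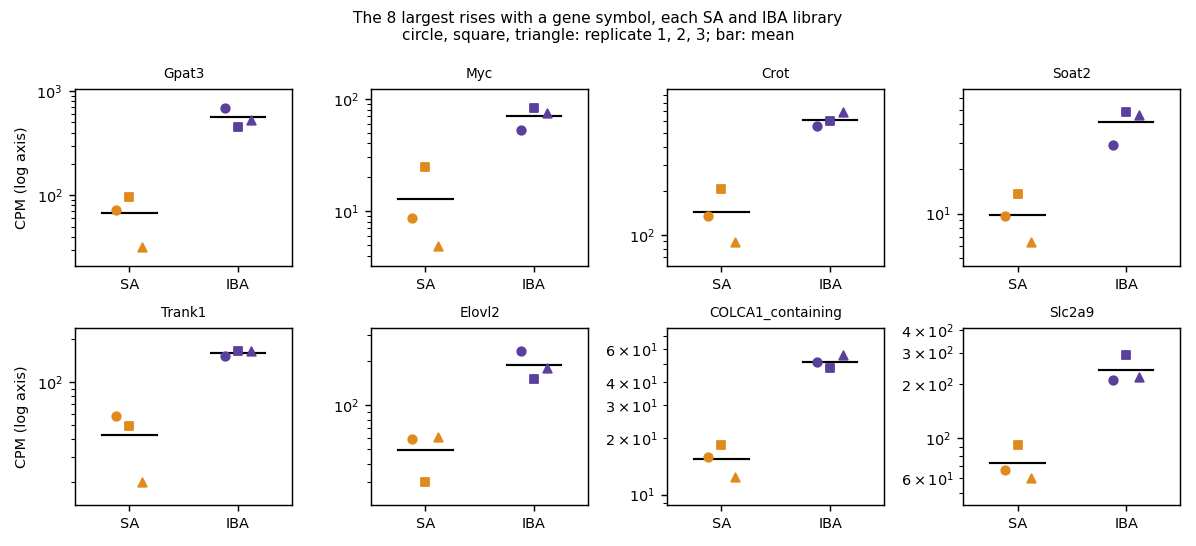
CPM (log axis) of the 8 largest rises with a gene symbol in each SA and IBA library, with a marker for each replicate and a bar at the group mean. In all 8 units every IBA library stands above every SA library, by a fitted 3.30-fold in Slc2a9 up to 8.48-fold in Gpat3.

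Several genes of nitrogen and amino acid metabolism fell in IBA. Of 14 single-gene units of the urea cycle and ammonia handling 3 fell (21.4%), and the median was -0.66. In edgeR 9 of the 14 had an unadjusted p of 0.05 or less, against 23.4% of all single-gene units. DESeq2 called 4 lower and 1 higher, and limma-voom 3 lower and 1 higher. Ass1, argininosuccinate synthase of the urea cycle, had 1900.0, 2032 and 1383 CPM in the SA libraries and 99.5, 234 and 164 in the IBA libraries, a 10.7-fold fall (-3.42 ± 0.75, adjusted p = 0.0196). DESeq2 gave no adjusted p for Ass1 and so did not call it. Slc7a2, the liver's carrier of arginine and other cationic amino acids, had 2153, 2647 and 1350.3 CPM in the SA libraries and 540.2, 436 and 440.5 in the IBA libraries (-2.12 ± 0.30, adjusted p = 0.00294). Gpt2, mitochondrial alanine aminotransferase, had 107, 193 and 129 CPM in the SA libraries and 48.3, 56.2 and 46.9 in the IBA libraries (-1.50 ± 0.34, adjusted p = 0.0228). All 3 had every IBA library below every SA library. Slc7a2 was called without each library in turn, Ass1 was lost without IBA replicate 1 or 3 (adjusted p = 0.0886 and 0.0907), and Gpt2 without SA replicate 2 or IBA replicate 1, 2 or 3 (adjusted p = 0.0611, 0.0874, 0.0613 and 0.102). The list had 1 fall without IBA replicate 1 or 3 and 1 rise without SA replicate 3.

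Cps1 and Otc, also enzymes of the urea cycle, did not pass the test. Cps1, the first enzyme of the cycle and among the most heavily read units of the liver, had 6054, 13658 and 2643 CPM in the SA libraries and 4059.6, 1957 and 2702 in the IBA libraries (-1.36 ± 0.59, adjusted p = 0.197). Its spread in SA was wide, with replicate 2 highest and replicate 3 within the IBA range. Otc, the next enzyme, had 523, 291 and 882 CPM in the SA libraries and 488, 556 and 447 in the IBA libraries, with overlapping groups (-0.19 ± 0.32, adjusted p = 0.782). Glutaminase 2 (Gls2), which frees ammonia from glutamine, overlapped too (-0.70 ± 0.26, adjusted p = 0.135).

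Of 33 units of amino acid catabolism 5 fell (15.2%) and 1 rose, with a median of -0.42. DESeq2 called 9 lower and limma-voom 6, and the list had 3 falls without IBA replicate 1 or 3 and 0 rises without SA replicate 2 or 3 or IBA replicate 1, 2 or 3. Oat, ornithine aminotransferase, gave one of the clearest falls of the comparison: it had 188, 175 and 219 CPM in the SA libraries and 8.53, 11.9 and 7.50 in the IBA libraries (Itri1:12818430-12840875, plus strand), 20.8-fold lower with little spread in either group (-4.38 ± 0.47, adjusted p = 0.00132). HPD_like_gene12596, named for the dioxygenase of tyrosine breakdown, had 556, 698 and 868 CPM in the SA libraries and 241, 230.1 and 269.6 in the IBA libraries (-1.52 ± 0.20, adjusted p = 0.00265). Oat, HPD_like_gene12596 and Ivd, an enzyme of leucine breakdown (-0.95 ± 0.16, adjusted p = 0.00498), were called without each library in turn, whereas Kynu, kynureninase of tryptophan breakdown (-1.08 ± 0.22, adjusted p = 0.015), was lost without IBA replicate 1, 2 or 3 (adjusted p = 0.0531, 0.0665 and 0.0521).

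Agxt2, a mitochondrial aminotransferase, went the other way and had 276, 224 and 245 CPM in the SA libraries and 398, 385 and 374 in the IBA libraries (0.64 ± 0.15, adjusted p = 0.0289), called with a library left out only without SA replicate 1 (adjusted p = 0.0305). Tat, which starts tyrosine breakdown, had 2694, 2414 and 2559 CPM in the SA libraries and 1083, 1520.2 and 1119 in the IBA libraries. The groups stood apart by a fitted 2.06-fold, yet the adjusted p was 0.165. Cth, which makes cysteine from cystathionine, was lower in every IBA library by a small, uncalled margin (-0.40 ± 0.22, adjusted p = 0.327). Sds, serine dehydratase, had 195, 139 and 164 CPM in the SA libraries and 10.51, 84.7 and 16.6 in the IBA libraries (-2.15 ± 1.10, adjusted p = 0.277), with IBA replicate 2 well above the other IBA libraries.

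The gluconeogenic genes Pck1 and G6pc were not called, while a glycogen gene fell. Pck1, the first committed enzyme of gluconeogenesis, had 1124, 584 and 1414 CPM in the SA libraries and 1081, 2053 and 1482 in the IBA libraries (0.56 ± 0.42, adjusted p = 0.483), and G6pc, glucose-6-phosphatase, had 2041, 371 and 1317 CPM in the SA libraries and 1719, 1319 and 1508 in the IBA libraries (0.29 ± 0.44, adjusted p = 0.761). Both overlapped, and SA replicate 2 was the lowest library for each. Of 18 units of gluconeogenesis, glycolysis and glycogen 1 fell (5.56%), Ppp1r3b, which brings protein phosphatase 1 to glycogen, and the list median was -0.13; it had 2 falls without SA replicate 3 and 1 rise without SA replicate 1. Ppp1r3b had 886, 1004 and 1035 CPM in the SA libraries and 242, 429 and 307 in the IBA libraries (-1.58 ± 0.22, adjusted p = 0.00294), with the call kept without each library in turn. Glycogen synthase 2 (Gys2, -0.42 ± 0.29, adjusted p = 0.431) and liver glycogen phosphorylase (Pygl, 0.19 ± 0.31, adjusted p = 0.774) had overlapping groups.

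Secreted plasma proteins gave few calls. Of 22 complement and coagulation units edgeR called 0, with 2 at an unadjusted p of 0.05 or less and 0 called by DESeq2 or limma-voom, and the median was 0.14. Fibrinogen units Fgb and Fgg had log2 fold changes of -0.02 and -0.03, and plasminogen (Plg) 0.05 ± 0.17. The units C3_gene14935 (0.11 ± 0.36, adjusted p = 0.886) and C3_gene26229 (0.03 ± 0.48, adjusted p = 0.983), named for complement C3, overlapped. Tf, transferrin, had 279, 337 and 321 CPM in the SA libraries and 637, 549.9 and 489 in the IBA libraries (0.84 ± 0.16, adjusted p = 0.00981) and was the only call among 13 acute-phase and carrier proteins (7.69%, list median 0.19); without IBA replicate 1 its adjusted p was 0.0508. The list had 0 rises without IBA replicate 1 and 2 rises without SA replicate 1 or 2. Transthyretin (Ttr, 0.11 ± 0.27, adjusted p = 0.854) and HP_like (0.09 ± 0.55, adjusted p = 0.947), named for haptoglobin, overlapped.

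Serpina7, the thyroxine-binding globulin of squirrel plasma, was read in both a single-gene and a merged unit. The single-gene unit had 100.02, 26.1 and 19.7 CPM in the SA libraries and 223, 98.2 and 159 in the IBA libraries (1.73 ± 0.57, adjusted p = 0.102), where SA replicate 1 overlapped the IBA range, and the adjusted p was 0.00932 without that library. The neighbouring merged unit G4250:G4257:Serpina7 on the same strand had 269, 128 and 189.6 CPM in the SA libraries and 736, 456 and 547 in the IBA libraries (1.57 ± 0.27, adjusted p = 0.00623), without overlap, and was called without each library in turn. A2m, the protease inhibitor alpha-2-macroglobulin, had 590.0, 1498 and 416 CPM in the SA libraries and 5767, 1413 and 1771 in the IBA libraries (1.84 ± 0.56, adjusted p = 0.0761). IBA replicate 1 stood far above the rest, SA replicate 2 overlapped the IBA range, and the adjusted p was 0.0226 without SA replicate 2.

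Of 9 apolipoprotein and lipoprotein assembly units edgeR called 0, with 2 at an unadjusted p of 0.05 or less and 1 called lower by DESeq2 and by limma-voom each, and the median was 0.22; the list had 1 fall without SA replicate 2 or IBA replicate 2. Apob, the structural protein of lipoproteins made by the liver, had 3155, 2859.8 and 3671 CPM in the SA libraries and 5439, 3857 and 4082 in the IBA libraries (0.47 ± 0.21, adjusted p = 0.221). Every IBA library lay above every SA library there, while Mttp, which loads lipid onto Apob, overlapped (0.13 ± 0.18, adjusted p = 0.737). Angptl8, a feeding-induced regulator of lipoprotein lipase, had 682, 238 and 672 CPM in the SA libraries and 43.8, 232 and 62.6 in the IBA libraries (-2.23 ± 0.68, adjusted p = 0.0758). Its IBA replicate 2 lay just under the lowest SA library, and the adjusted p was 0.0488 without SA replicate 2 and 0.0272 without IBA replicate 2.

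Some genes of the circadian clock fell in IBA. Of 10 single-gene units 3 fell (30.0%), and the median was -0.77, the second lowest among lists of 10 or more units. Per2, a core repressor, had 114, 155 and 161 CPM in the SA libraries and 68.5, 44.1 and 40.6 in the IBA libraries (-1.50 ± 0.24, adjusted p = 0.00412) and was called without each library in turn. Noct, a rhythmic gene of lipid metabolism, had 189.7, 636 and 84.8 CPM in the SA libraries and 26.7, 12.5 and 20.9 in the IBA libraries (-3.92 ± 0.84, adjusted p = 0.0175), with SA replicate 2 highest and the call lost without IBA replicate 1, 2 or 3 (adjusted p = 0.0592, 0.0738 and 0.084). Cry2, a partner of the Per proteins, had 185, 93.2 and 201 CPM in the SA libraries and 95.5, 58.7 and 69.0 in the IBA libraries (-1.11 ± 0.25, adjusted p = 0.022). SA replicate 2 lay within the IBA range there, and the call was lost without SA replicate 1 or 3 or IBA replicate 2 or 3 (adjusted p = 0.0555, 0.0776, 0.0878 and 0.102). The list had 1 fall without IBA replicate 3, where Per2 remained.

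The merged units that contain Per1 and Per3 also fell. The unit Trnas-cga_gene15498:Trnat-agu_gene15499:Per1:Vamp2 had 328, 338 and 300.0 CPM in the SA libraries and 128, 111 and 108 in the IBA libraries (-1.48 ± 0.27, adjusted p = 0.00721), and Vamp3:G5811:Per3 had 714, 446 and 727 CPM in the SA libraries and 339, 419.5 and 315 in the IBA libraries (-0.81 ± 0.21, adjusted p = 0.0417), the latter called with a library left out only without SA replicate 2 (adjusted p = 0.00922). The activator Clock had 148, 202 and 162 CPM in the SA libraries and 205, 177 and 198 in the IBA libraries (0.18 ± 0.14, adjusted p = 0.493), and Cry1 (0.22 ± 0.42, adjusted p = 0.811) and Nr1d1 (-1.48 ± 0.56, adjusted p = 0.146), which encodes the repressor REV-ERB alpha, had overlapping groups. Nr1d1 was uneven in IBA, with replicate 2 at 53.1 CPM against 11.9 and 17.4, and reached an adjusted p of 0.0418 without that library.

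Immediate early genes had calls in both directions, with most units below 0. Of 17 units 2 fell (11.8%) and 1 rose (5.88%), Myc, with a median of -0.37 and 13 units below 0. Nr4a1, an orphan nuclear receptor, had 79.5, 44.8 and 171 CPM in the SA libraries and 8.81, 14.005 and 12.8 in the IBA libraries (-3.05 ± 0.47, adjusted p = 0.00377) and was called without each library in turn. Atf3, a stress-responsive transcription factor, had 14.2, 63.8 and 52.6 CPM in the SA libraries and 12.2, 13.6 and 7.50 in the IBA libraries (-1.98 ± 0.52, adjusted p = 0.0438), where SA replicate 1 was little above IBA, and was called with a library left out only without SA replicate 1 (adjusted p = 0.00755). Egr1 had 12.8, 51.7 and 67.6 CPM in the SA libraries and 64.5, 58.7 and 114 in the IBA libraries, with overlapping groups and no call (0.84 ± 0.71, adjusted p = 0.541), and Jun also overlapped (-0.99 ± 0.37, adjusted p = 0.139) but reached an adjusted p of 0.018 without SA replicate 1. The list had 1 fall without SA replicate 2 or 3 or IBA replicate 1, 2 or 3.

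Stress and chaperone genes gave few calls. Of 21 heat shock and chaperone units edgeR called 0, with 2 at an unadjusted p of 0.05 or less and 0 called by DESeq2 or limma-voom, and the median was -0.20; the list had 1 fall without SA replicate 3. Hsp90aa1 (-0.70 ± 0.25, adjusted p = 0.123) and Hspd1 (0.04 ± 0.17, adjusted p = 0.911) overlapped, and Dnajb1 was lower in every IBA library without passing the test (-0.31 ± 0.20, adjusted p = 0.41). Of 12 merged units with a gene of this list 2 fell (median -0.10), the unit with Fkbp5 and the unit that joins Hspa8, a constitutive chaperone, to small nucleolar RNA genes. The Hspa8 unit had 367, 820.2 and 1427 CPM in the SA libraries and 237, 260.2 and 257 in the IBA libraries (-1.79 ± 0.48, adjusted p = 0.0476), with the SA libraries spread widely and SA replicate 1 nearest to IBA, and was called with a library left out only without SA replicate 1 (adjusted p = 0.0135). The merged units of the list gave 0 falls without SA replicate 2 or IBA replicate 1, 2 or 3 and 1 fall without SA replicate 3. Of 22 units of the unfolded protein and integrated stress responses 2 fell (9.09%, median -0.08). Ddit4, an inhibitor of mTORC1, had 505, 175 and 63.6 CPM in the SA libraries and 20.5, 39.3 and 34.8 in the IBA libraries (-2.96 ± 0.78, adjusted p = 0.0454), with SA replicate 1 highest, and was lost without SA replicate 1 or IBA replicate 1, 2 or 3 (adjusted p = 0.132, 0.156, 0.106 and 0.142). Nupr1, a small stress-induced nuclear protein, had 218, 151 and 186 CPM in the SA libraries and 83.6, 87.4 and 60.2 in the IBA libraries (-1.26 ± 0.25, adjusted p = 0.011), lost without IBA replicate 3 (adjusted p = 0.0688). That list had 0 falls without IBA replicate 3 and 1 fall without IBA replicate 2. The chaperone Hspa5 (0.12 ± 0.36, adjusted p = 0.88) and the transcription factor Xbp1 (0.22 ± 0.33, adjusted p = 0.752) had overlapping groups.

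The first step of heme synthesis fell. Alas1, the rate-limiting enzyme of heme synthesis in liver (Itri7:66735908-66778089, plus strand), had 978, 986 and 971 CPM in the SA libraries and 366, 419 and 375 in the IBA libraries (-1.34 ± 0.18, adjusted p = 0.00265). SA animals were almost equal, IBA animals nearly so, and the call held without each library in turn. Aco1, which doubles as the iron regulatory protein 1, had 209, 214 and 219 CPM in the SA libraries and 159, 133 and 132 in the IBA libraries (-0.60 ± 0.13, adjusted p = 0.0198) and was the other fall among 12 units of iron and heme handling (16.7%, median -0.21), lost without SA replicate 3 or IBA replicate 2 or 3 (adjusted p = 0.0525, 0.0771 and 0.102). The list had 1 fall without SA replicate 3 or IBA replicate 2 or 3. Tfrc, the transferrin receptor, had overlapping groups (0.24 ± 0.25, adjusted p = 0.621).

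Drug-metabolising enzymes gave few calls in either direction. Of 34 units 2 fell (5.88%) and 1 rose (2.94%), against a background of 2.87% and 2.7%, and the median was 0.05. In edgeR 16 of the 34 had an unadjusted p of 0.05 or less, against 23.4% of all single-gene units. DESeq2 called 4 lower and 1 higher, and limma-voom 1 lower and 1 higher. CYP1A1_like, named for a monooxygenase induced through the aryl hydrocarbon receptor, had 155, 9.90 and 155 CPM in the SA libraries and 0.568, 2.09 and 3.19 in the IBA libraries (-5.66 ± 1.07, adjusted p = 0.0095). SA replicate 2 was much nearer to IBA, and the call was lost without IBA replicate 1 (adjusted p = 0.0508). Its IBA levels were near the floor of detection, and a minimum of 10 counts in every library removed it. The unit was called in 14 of the 17 alternatives that tested it. CYP2C8 had 18.3, 22.3 and 24.2 CPM in the SA libraries and 102, 50.6 and 51.1 in the IBA libraries (1.64 ± 0.37, adjusted p = 0.021), lost without SA replicate 1 or IBA replicate 1 (adjusted p = 0.0575 and 0.0931), and CYP2U1_containing (-1.12 ± 0.30, adjusted p = 0.0467) was called with a library left out only without SA replicate 2 (adjusted p = 0.0119). The list had 0 falls without IBA replicate 1, 1 fall without SA replicate 1 or IBA replicate 3, 0 rises without IBA replicate 1 and 4 rises without SA replicate 3. Members of the CYP2C cluster resemble each other, so their levels are uncertain in the same way as those of the SCD units. Among 27 merged units with a gene of this list 1 rose and 1 fell (median -0.13), with 0 falls without IBA replicate 1 or 3, 2 falls without SA replicate 1 and 0 rises without IBA replicate 1 or 3.

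Regulators of hepatocyte identity gave 2 calls. Of 20 nuclear receptors and hepatocyte transcription factors 2 rose (10.0%), with a list median of 0.07. Hnf4g, a relative of the master hepatocyte factor Hnf4a, had 60.7, 45.9 and 69.2 CPM in the SA libraries and 177, 145 and 159 in the IBA libraries (1.45 ± 0.24, adjusted p = 0.00544) and was called without each library in turn. Hnf4a itself had 983, 889.5 and 895 CPM in the SA libraries and 813, 894 and 751 in the IBA libraries (-0.17 ± 0.17, adjusted p = 0.601), and Thrb (0.10 ± 0.17, adjusted p = 0.781), Rxra (0.27 ± 0.29, adjusted p = 0.646) and Cebpa (-0.45 ± 0.36, adjusted p = 0.512) overlapped. The list had 1 rise without SA replicate 1 or 3 or IBA replicate 1, 2 or 3.

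In insulin and growth factor signalling 1 of 12 units fell (8.33%, median -0.05). Foxo3, a transcription factor restrained by insulin, had 1838, 1660.2 and 1539.9 CPM in the SA libraries and 1033, 762 and 746 in the IBA libraries (-0.99 ± 0.22, adjusted p = 0.0203), lost without IBA replicate 2 or 3 (adjusted p = 0.0804 and 0.102). Igf1, the growth factor that liver secretes into plasma, had 79.3, 1012 and 109.8 CPM in the SA libraries and 287, 264 and 488 in the IBA libraries. SA replicate 2 alone stood above all IBA libraries, and the log2 fold change was -0.20 ± 0.73, adjusted p = 0.903. Without that library it was 1.87 with an adjusted p of 0.0204, a reversal of sign that rests on a single animal. Igfbp1 had 2354, 226 and 1150.4 CPM in the SA libraries and 3222, 1477 and 1837 in the IBA libraries (0.81 ± 0.71, adjusted p = 0.554), with SA replicate 2 lowest. The insulin receptor Insr was lower in every IBA library (-0.51 ± 0.22, adjusted p = 0.193) and its substrate Irs2 overlapped (0.15 ± 0.32, adjusted p = 0.834), neither being called. The list had 0 falls without IBA replicate 2 or 3 and 1 rise without SA replicate 2.

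The general machinery of the cell gave few calls. edgeR called 0 of 32 oxidative phosphorylation subunits and assembly factors (5 at an unadjusted p of 0.05 or less), 0 of 19 proteasome subunits (3), 0 of 27 units of RNA polymerase II and Mediator (3), 0 of 14 lipid droplet and fatty acid uptake units (4), 0 of 11 antioxidant units (4) and 0 of 10 interferon units (0). DESeq2 called 1 each among the RNA polymerase, lipid droplet and antioxidant units and 0 in the others, and limma-voom called 0 in all 6 lists. Single calls appeared with a library left out in oxidative phosphorylation (1 rise without SA replicate 1), lipid droplets (1 fall without SA replicate 3 and 1 rise without SA replicate 2) and antioxidant genes (1 fall without SA replicate 2). These key genes of the lists were uncalled: the fatty acid carriers Cd36 (0.04) and Fabp1 (0.76), the antioxidant genes Gclc (-0.35), Nfe2l2 (-0.23) and Sod2 (-0.21), and the interferon genes Irf1 (-0.52) and B2m (-0.43), as log2 fold changes. Cytosolic ribosomal protein units had a median of 0.24 with 29 of 30 above 0, and 1 call, Rpl22l1 (0.69 ± 0.17, adjusted p = 0.0366), which held with a library left out only without SA replicate 2 (adjusted p = 0.0411). Mrpl48, the call among 12 mitochondrial ribosomal proteins (0.62 ± 0.15, adjusted p = 0.0289), held only without SA replicate 1 (adjusted p = 0.0272). Cytosolic ribosomal units gave 0 rises without SA replicate 1 or 3 or IBA replicate 1, 2 or 3 and 3 rises without SA replicate 2, and mitochondrial ones gave 0 rises without SA replicate 2 or 3 or IBA replicate 1, 2 or 3. Other ribosomal protein genes lay in merged units, with a median of the opposite sign: of 45 merged cytosolic ribosomal units edgeR called 0, with 11 at an unadjusted p of 0.05 or less, DESeq2 called 4 lower and limma-voom 0, the median was -0.19 and there were 4 falls without SA replicate 1. Of 27 merged mitochondrial ribosomal units edgeR, DESeq2 and limma-voom called 0 (3 at an unadjusted p of 0.05 or less, median -0.10). Among 56 splicing factors Celf2 fell (1.79%): it had 997, 1092 and 1088 CPM in the SA libraries and 422, 487 and 524 in the IBA libraries (-1.15 ± 0.21, adjusted p = 0.00767) and was called without each library in turn. The splicing list had 2 falls without SA replicate 2 or 3.

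In autophagy and lysosome genes 2 of 24 fell (8.33%, median -0.15). In edgeR 11 of the 24 had an unadjusted p of 0.05 or less, against 23.4% of all single-gene units. DESeq2 called 4 lower and 1 higher, and limma-voom 2 lower. Neu1, the lysosomal sialidase, had 30.1, 21.7 and 23.2 CPM in the SA libraries and 10.2, 12.5 and 14.05 in the IBA libraries (-1.01 ± 0.18, adjusted p = 0.00669), and Npc1, which exports cholesterol from lysosomes, had 217, 177 and 317 CPM in the SA libraries and 127, 117 and 119 in the IBA libraries (-0.97 ± 0.20, adjusted p = 0.0138). Neu1 was called without each library in turn and Npc1 was lost without IBA replicate 2 or 3 (adjusted p = 0.0527 and 0.0694). The list had 1 fall without IBA replicate 3, 4 falls without SA replicate 2 and 1 rise without SA replicate 1. Tfeb, the transcription factor of lysosomal genes, was lower in every IBA library without passing the test (-0.84 ± 0.31, adjusted p = 0.139), and Lamp1, a lysosomal membrane protein, overlapped (0.03 ± 0.25, adjusted p = 0.959). Of the cell cycle list only Ccnd3, a G1 cyclin (-1.24 ± 0.22, adjusted p = 0.00633, called without each library in turn), and Cdkn1a, the inhibitor p21 (-1.58 ± 0.43, adjusted p = 0.0545; adjusted p = 0.0428 without SA replicate 1), had single-gene units.

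**Figure D4:**
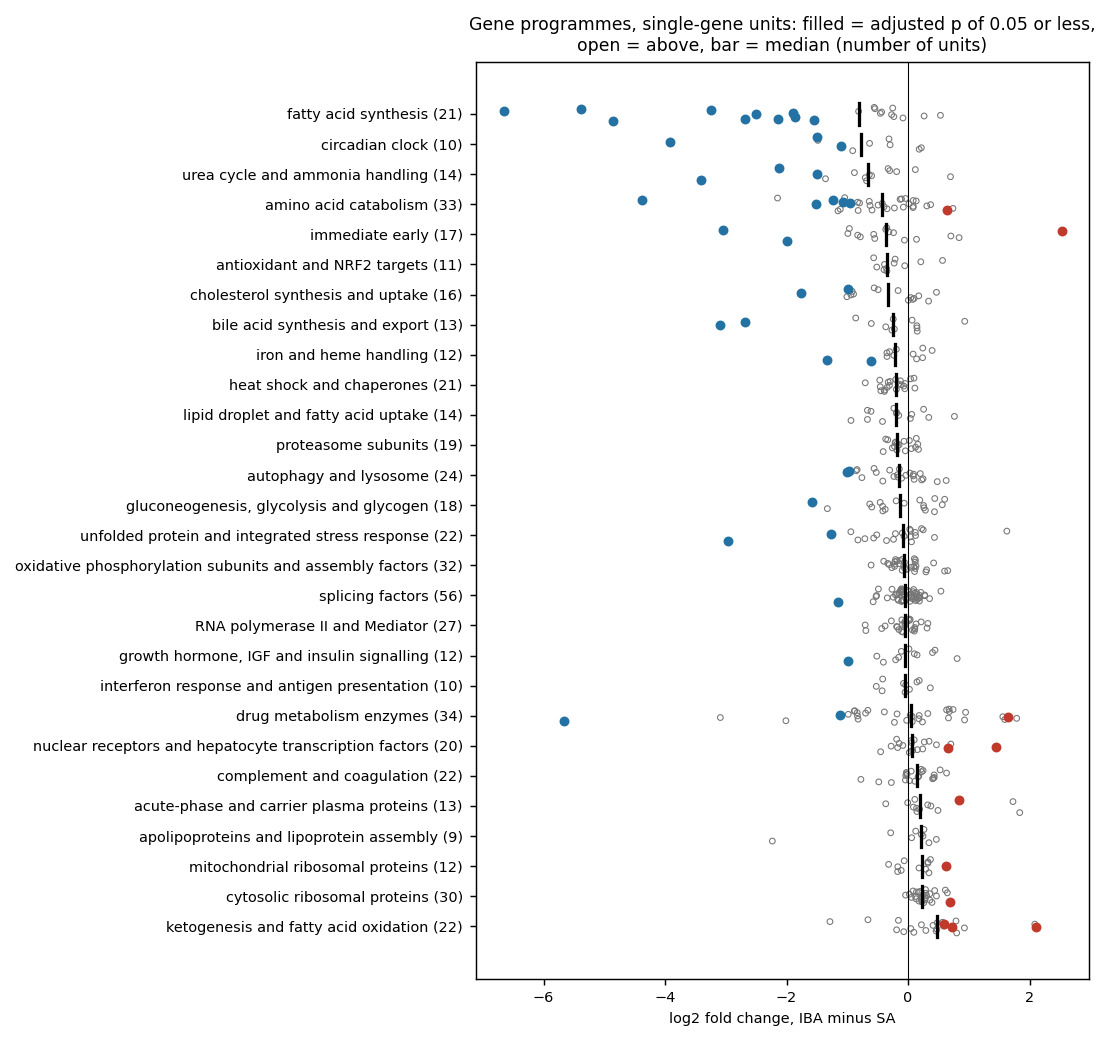
Log2 fold changes (IBA minus SA) of the single-gene units of 28 gene programmes, ordered by the list median, with filled points for units at an adjusted p of 0.05 or less, open points for the rest and a bar at the median. Fatty acid synthesis lies lowest, with 10 of 21 units filled, and ketogenesis and fatty acid oxidation highest, with 3 of 22, while most lists sit near 0.

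Several of the deepest falls lie outside these programmes. Mmp20, known as the enamel protease enamelysin, had 177, 82.8 and 111 CPM in the SA libraries and 5.40, 2.299 and 2.55 in the IBA libraries (-5.23 ± 0.74, adjusted p = 0.00294). Marveld3, a tight junction protein, had 299, 175 and 53.3 CPM in the SA libraries and 8.81, 6.48 and 9.42 in the IBA libraries (-4.40 ± 0.59, adjusted p = 0.00265), and ACSM1_containing, named for a medium-chain acyl-CoA synthetase, had 241, 42.9 and 216 CPM in the SA libraries and 5.68, 11.1 and 6.71 in the IBA libraries (-4.40 ± 0.77, adjusted p = 0.00623). All 3 were low in IBA, and their SA levels were high and spread, and each call held without each library in turn. Thsd7b had 21.5, 93.5 and 1184 CPM in the SA libraries and 16.2, 14.8 and 19.3 in the IBA libraries (-4.69 ± 1.08, adjusted p = 0.0248). SA replicate 3 carried most of that difference, the next SA libraries being far lower, and the call was lost without SA replicate 3 or IBA replicate 1, 2 or 3 (adjusted p = 0.0849, 0.0986, 0.0907 and 0.102).

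A unit without a gene symbol gave the smallest adjusted p of the comparison. ENSSTOG00000034399 (Itri5:153830113-153845543, minus strand) had 5.06, 5.50 and 7.60 CPM in the SA libraries and 75.9, 62.9 and 73.9 in the IBA libraries, an 11.4-fold rise (3.51 ± 0.25, adjusted p = 3.21e-05), and was the single unit past an adjusted p of 0.001. G15365 had 0.482, 1.65 and 0.832 CPM in the SA libraries and 9.09, 26.1 and 26.3 in the IBA libraries (4.43 ± 0.84, adjusted p = 0.0095), near the floor of detection in SA with 2, 6 and 7 counts, and G22456 had 9.88, 19.8 and 6.18 CPM in the SA libraries and 76.2, 56.9 and 78.4 in the IBA libraries (2.61 ± 0.42, adjusted p = 0.00412). On the falling side G34581 had 158, 103 and 55.5 CPM in the SA libraries and 15.9, 13.6 and 20.9 in the IBA libraries (-2.64 ± 0.44, adjusted p = 0.00498) and G31489 had 109.7, 115 and 108 CPM in the SA libraries and 22.5, 18.6 and 20.1 in the IBA libraries (-2.44 ± 0.38, adjusted p = 0.00389), the latter nearly equal among animals of each group. G35225 had 190.2, 82.2 and 13.1 CPM in the SA libraries and 2.27, 2.72 and 3.51 in the IBA libraries (-5.02 ± 1.02, adjusted p = 0.0138), lost without any IBA replicate (adjusted p = 0.0628, 0.0584 and 0.0712). The other 5 were called without each library in turn. Of 161 single-gene units named by G and digits 15 rose (9.32%) and 7 fell (4.35%), against 106 rises (2.41%) and 123 falls (2.8%) among 4396 units with a symbol.

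Among merged units the largest rise was LOC110598479:UBE2F, with 8.92, 3.30 and 1.19 CPM in the SA libraries and 60.2, 56.9 and 67.7 in the IBA libraries (3.88 ± 0.60, adjusted p = 0.00389). LOC110598346:G2492 had 10.1, 18.7 and 11.9 CPM in the SA libraries and 109, 76.5 and 118 in the IBA libraries (2.91 ± 0.38, adjusted p = 0.00265), and G33267:Abca9 had 17.4, 13.8 and 7.60 CPM in the SA libraries and 44.6, 56.6 and 35.1 in the IBA libraries (1.84 ± 0.28, adjusted p = 0.00381). The groups of all 3 stood apart. The largest falls were G34287:G34285, with 328, 327 and 233 CPM in the SA libraries and 5.68, 8.57 and 3.67 in the IBA libraries (-5.64 ± 0.82, adjusted p = 0.00299), and the Aacs-containing unit named above (-4.50 ± 0.80, adjusted p = 0.00712), followed by G39:G41:G54, with 97.9, 165 and 697 CPM in the SA libraries and 32.4, 20.3 and 25.9 in the IBA libraries (-3.62 ± 0.69, adjusted p = 0.00981). Of these 6, only G39:G41:G54 lost its call with a library left out, without IBA replicate 3 (adjusted p = 0.0575). The Aacs-containing unit was not called by limma-voom (adjusted p = 0.134).

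Merged units also carried further members of the lipid programme, picked out here after their values were seen. Of 7 merged units with a fatty acid synthesis gene 4 fell (57.1%), against 2.78% of all merged units. Elovl6:U6_ENSSTOG00000018625, with the elongase of newly made palmitate, had 5745, 694 and 315 CPM in the SA libraries and 262, 193 and 235 in the IBA libraries (-3.29 ± 0.83, adjusted p = 0.0373). SA replicate 1 was far above the rest and the call was lost without SA replicate 1 or IBA replicate 1, 2 or 3 (adjusted p = 0.121, 0.115, 0.12 and 0.135). Dgat2:Uvrag, with the final enzyme of triglyceride synthesis, had 2293, 1014 and 2139.8 CPM in the SA libraries and 648, 800.2 and 701 in the IBA libraries (-1.34 ± 0.28, adjusted p = 0.0151), lost without IBA replicate 1 or 3 (adjusted p = 0.0701 and 0.0746), and Samm50:Pnpla3 had 254, 103 and 175 CPM in the SA libraries and 57.4, 67.1 and 61.5 in the IBA libraries (-1.51 ± 0.29, adjusted p = 0.0108), lost without IBA replicate 1 or 3 (adjusted p = 0.0528 and 0.0575). Without IBA replicate 1 or IBA replicate 3 only 1 of the 4, the Aacs-containing unit, was called. Which gene of each unit carried the reads was not tested.

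The merged unit of the liver microRNA host MIR122 had 1293, 2337 and 1352 CPM in the SA libraries and 2913, 3911 and 3536 in the IBA libraries (1.06 ± 0.24, adjusted p = 0.022), higher in every IBA library, with the call lost without SA replicate 1 or 3 or IBA replicate 2 or 3 (adjusted p = 0.0633, 0.0761, 0.0771 and 0.0835). LDHC_containing:Ldha, with the lactate dehydrogenase gene, had 378, 218 and 342 CPM in the SA libraries and 521, 1006 and 704 in the IBA libraries (1.25 ± 0.30, adjusted p = 0.0319), lost without SA replicate 2 or 3 or IBA replicate 2 or 3 (adjusted p = 0.0779, 0.0665, 0.116 and 0.0862). Fkbp5, a gene known to respond to glucocorticoids, lies in a merged unit with 194, 783 and 288 CPM in the SA libraries and 109.7, 38.0 and 58.9 in the IBA libraries (-2.62 ± 0.66, adjusted p = 0.0371), where SA replicate 2 was highest; that call was lost without SA replicate 2 or IBA replicate 1, 2 or 3 (adjusted p = 0.0984, 0.0564, 0.123 and 0.142). G17385:PRODH_like, named for proline dehydrogenase, had 289, 159 and 358 CPM in the SA libraries and 52.6, 57.5 and 56.2 in the IBA libraries (-2.28 ± 0.40, adjusted p = 0.00669) and was called without each library in turn.

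The other gene lists also had members in merged units, against a background of 1.42% rising and 2.78% falling. A merged unit was counted for a list if any of its genes was on that list. Which gene of a unit carried the reads was not tested, so these counts need not reflect the listed genes. Merged units fell in amino acid catabolism (2 of 13, 1 fall without SA replicate 1 or 3 or IBA replicate 1, 2 or 3), the circadian clock (3 of 8, 1 fall without IBA replicate 1 or 3), the growth hormone axis (1 of 7, 0 falls without IBA replicate 3 and 1 rise without SA replicate 2) and the interferon list (1 of 5, 0 falls without SA replicate 3 or IBA replicate 1, 2 or 3). They rose in cholesterol synthesis and uptake (1 of 8, 0 rises without SA replicate 3 or IBA replicate 2 or 3), glucose metabolism (1 of 10, 0 rises without SA replicate 2 or 3 or IBA replicate 2 or 3), complement and coagulation (1 of 15, 0 rises without SA replicate 1 or IBA replicate 1, 2 or 3) and acute-phase and carrier proteins (1 of 12, 2 rises without SA replicate 2). Apolipoproteins and lipoprotein genes had 1 rise and 1 fall in 10 (0 falls without IBA replicate 1 or 3 and 0 rises without SA replicate 1 or 3 or IBA replicate 1, 2 or 3). edgeR called 0 of 30 merged units of oxidative phosphorylation (4 at an unadjusted p of 0.05 or less), 0 of 38 of splicing factors (5), 0 of 16 of RNA polymerase II and Mediator (4), 0 of 16 of the proteasome (1), 0 of 10 of antioxidant genes (2), 0 of 8 of immediate early genes (2) and 0 of 4 of the urea cycle (2). In these 7 lists DESeq2 called 2 splicing units and 1 urea cycle unit lower and 1 oxidative phosphorylation and 1 RNA polymerase unit higher, and limma-voom called 1 oxidative phosphorylation unit higher. With a library left out there was 1 call in oxidative phosphorylation (1 rise without SA replicate 1), splicing (1 fall without SA replicate 1), the proteasome (1 fall without SA replicate 2), RNA polymerase (1 fall without SA replicate 2), antioxidant genes (1 fall without SA replicate 2), immediate early genes (1 rise without SA replicate 1) and the urea cycle (1 fall without SA replicate 2). edgeR, DESeq2 and limma-voom called 0 merged units, with 0 at an unadjusted p of 0.05 or less, in bile acids (8), lipid droplets (5), the unfolded protein response (6), the cell cycle (6), iron and heme (6), nuclear receptors (10) and autophagy and lysosome (8).

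Some called units lay near each other: 16 groups of 2 or 3 called units of one direction had gaps of at most 100 kb. Uncalled units between them were passed over, and 5.57% of single-gene and 4.2% of merged units were called. Whether 16 groups exceed what scattered calls would give was not tested. The 3 SCD units form one, over Itri1:33657946-33806869, and Oat forms another with Lhpp (-1.64 ± 0.35, adjusted p = 0.0181), which lies on the opposite strand. ACSM1_containing lies near Acsm2b (-1.66 ± 0.35, adjusted p = 0.0151), of the same enzyme family. COLCA1_containing and Colca2 (1.502 ± 0.24, adjusted p = 0.00409) overlap on opposite strands, as do Npc1 and RMC1 (-0.58 ± 0.15, adjusted p = 0.0424). The GRO-seq reads carried strand, but whether the counting used it is not given in the sources used here, so reads of overlapping partners may not be separate.

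Calls were set beside unit length. Among single-gene units under 10 kb 8 of 378 rose (2.12%) and 10 fell (2.65%), and among those of 200 kb or more 14 of 271 rose (5.17%) and 12 fell (4.43%). Among those of 50 to 200 kb 61 of 1505 rose (4.05%) and 34 fell (2.26%), whereas among those of 10 to 50 kb 44 of 2551 rose (1.72%) and 79 fell (3.1%). The rank correlation of log2 fold change with length was 0.13 over 4705 units, as a description, since units share libraries and depth. Its part in the calls was not tested.

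The 12 units plotted over all 5 states were picked after their values were seen, and their levels in Ent, ET and LT are given as a description. SCD_containing_gene16206 stayed near the IBA level, at 7.09 CPM in Ent, 6.28 in ET and 12.6 in LT, and Oat stayed below its SA mean of 194, at 9.46, 27.9 and 13.6 CPM. Fasn was at 258, 474 and 466 CPM, between the IBA mean of 124 and the SA mean of 704. Per2, at 98.2, 125 and 232 CPM, was higher in LT than its SA mean of 144, whereas Alas1 was lower in each of these states, at 284, 220.0 and 173 CPM, than in IBA at 387.

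Among the rises, Gpat3 remained above SA, at 699.6, 339 and 396 CPM against 66.7 in SA, and Slc2a9 did so at 169, 151 and 172 CPM against 73.2. ENSSTOG00000034399 was at 36.3 CPM in Ent and at 8.83 and 7.76 in ET and LT, close to its SA mean of 6.06. Crot and Elovl2 likewise had LT means of 112 and 57.5 CPM beside SA means of 143 and 49.9. The MIR122 unit kept its IBA level in Ent, at 3431 CPM, and was far lower in ET and LT, at 783 and 303 CPM. These levels in Ent, ET and LT were not tested.

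**Figure D5:**
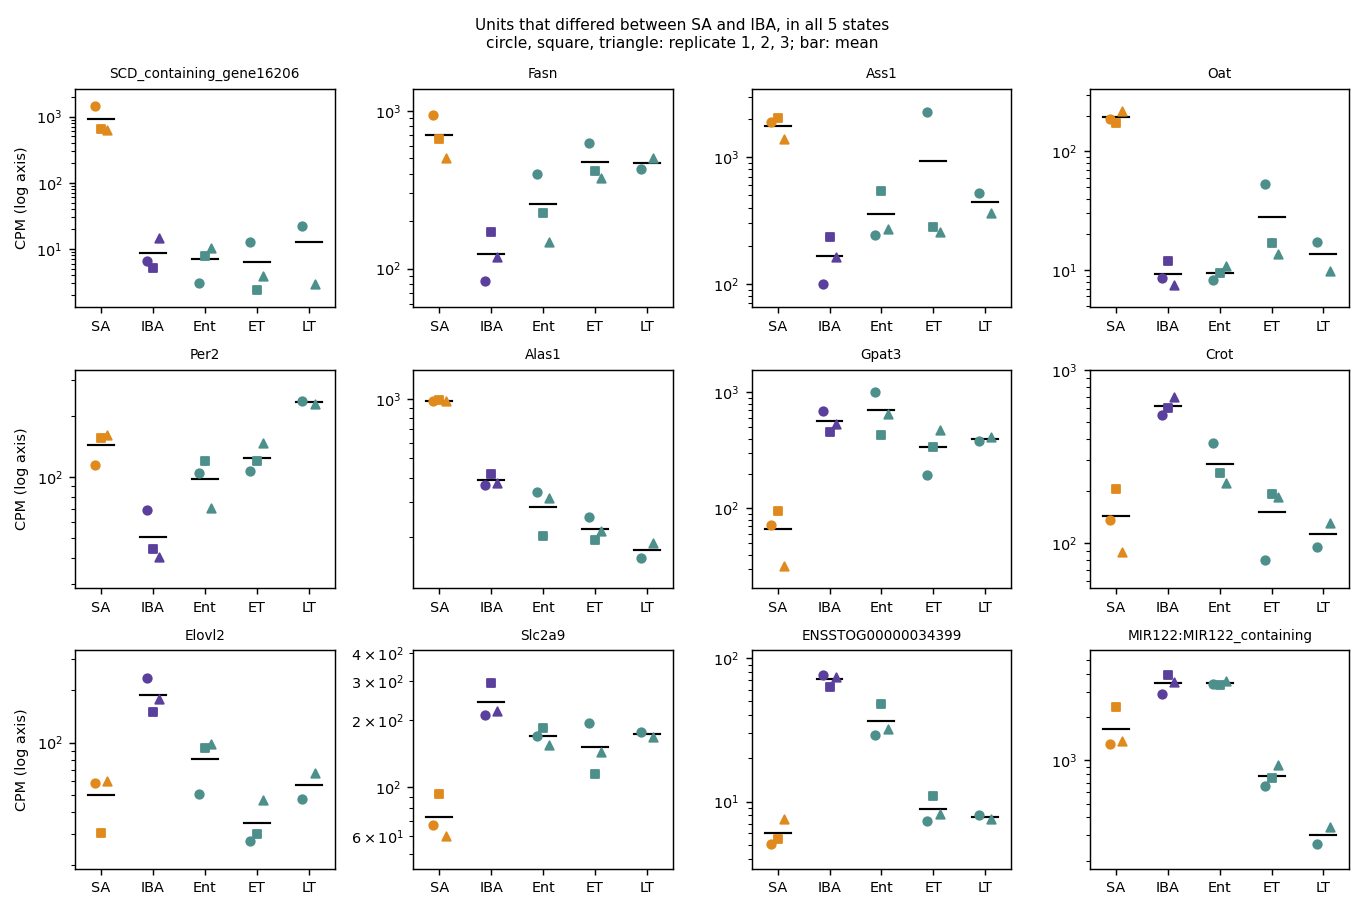
CPM (log axis) of 12 units that differed between SA and IBA in each library of the 5 states, with a marker for each replicate and a bar at the mean (3 libraries per state, 2 in LT). SCD_containing_gene16206 and Oat stay low in all hibernating states, Gpat3 and Slc2a9 stay high, and ENSSTOG00000034399 is highest in IBA and intermediate in Ent.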

How the data were processed

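GRO-seq was performed by the authors on liver nuclei. They trimmed reads with cutadapt, aligned them with BWA to the HiC_Itri_2 genome, redrew gene bodies with fstitch, dropped the first 500 nt and counted with featureCounts (unique alignments only, as stated for their first count; versions not given in the sources used here). What the authors deposited are unnormalized read counts. LT replicate 2 was not analysed here.

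Counts were TMM-scaled and fitted without a filter in edgeR 4.0.16 (R 4.3.3, quasi-likelihood test, legacy method) to 14 libraries in 5 states, with the contrast IBA minus SA and Benjamini-Hochberg adjustment over 6324 units at 0.05. The members, gene lists and threshold were chosen with earlier results of these data known, so lists are described and not tested as sets. Each library is a separate animal, and depth limits units of few counts.

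Units named are the 8 largest rises and 8 largest falls with a symbol and 3 of each without one, among called units whose groups did not overlap, 3 of each among merged units, key genes of the lists and up to 3 called members per list and direction. Further units (Acacb, Acss2, Lpin1, Ivd, Kynu, Hadha, Hadhb, Bdh1, Angptl8, Lhpp, Acsm2b, Colca2, RMC1, Cd14, and merged units other than the 3 of each) and those of the closing section were added after their values were seen. A few units that this rule names are not reported here. Lists were matched by symbol. Cytochromes outside the drug-metabolising families that a prefix had caught were dropped. Of single-gene names 88.4% had a RefSeq match (names only).

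The alternatives tried were other scalings (upper-quartile, RLE, total counts), filters (10 counts, filterByExpr) and tools (DESeq2 1.42.0, limma-voom in limma 3.58.1). Further ones were fits to SA and IBA alone or to one kind of unit and thresholds (0.001, or 0.05 with 2-fold). Blocks by replicate number or season of collection, and leaving out each SA and IBA library, were also tried. edgeR's adjusted deviances were added after seeing the data. Replicate numbers did not pair the animals: same-numbered SA and IBA deviations correlated at 0.024, -0.159 and 0.0962. Steps were tested on simulated data. No genome sequence was used, so no promoter is shown.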

Additional observations from a re-analysis of the deposited data

How the results depend on the processing

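Every call kept its sign in all alternatives in which the unit was tested. Against 262 single-gene and 68 merged calls, DESeq2 gave 542 and 144, SA and IBA libraries alone 144 and 32, a 2-fold minimum 149 and 39, and an adjusted p of 0.001 gave 1 and 0. With each library left out in turn, the single-gene count ranged from 94 to 311 and the merged count from 21 to 81. It was 117, 165 and 94 single-gene and 31, 40 and 21 merged units without IBA replicate 1, 2 and 3, and the cause was not tested. Without SA replicate 1, the SA animal collected in an earlier year, 286 and 81 units were called. Of these, 204 and 50 were among the calls above. With the season of collection as a factor 254 and 71 were called. That factor codes when animals were collected and does not separate summer from winter. Upper-quartile, RLE and total-count scaling, a minimum of 10 counts, limma-voom, units of one kind alone and adjusted deviances kept both counts within 1.5 times, and filterByExpr removed 0 units. With the replicate block 243 single-gene and 59 merged units were called, 215 and 55 of them shared. The log2 fold change of Igf1 ranged from -0.69 without SA replicate 1 to 1.87 without SA replicate 2, against -0.20 with all libraries. Merged units had 33.8% of their calls higher in IBA, against 39.4% with upper-quartile scaling and 45.1% with the season of collection as a factor. The share was 48.4% without IBA replicate 1 and 27.5% without IBA replicate 2. For named units, 2121 of 2293 alternative results kept the side of the threshold, 149 lost a call, 22 gained one and 1 was reversed. For list medians, 455 of 493 moved by less than the spread between replicates.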

Other observations

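Further called units, picked out after their values were seen, concern transport and the handling of fuel. Dio1, the deiodinase that makes active thyroid hormone in liver, had 146, 204 and 139 CPM in the SA libraries and 321, 274 and 323 in the IBA libraries (0.91 ± 0.17, adjusted p = 0.0097), lost without IBA replicate 3 (adjusted p = 0.0517). Slc16a7, a carrier of pyruvate and ketone bodies, had 379, 245 and 281 CPM in the SA libraries and 792, 715 and 841 in the IBA libraries (1.38 ± 0.21, adjusted p = 0.00377), and Slc30a10, a manganese exporter, had 20.5, 37.4 and 27.9 CPM in the SA libraries and 90.4, 84.2 and 98.2 in the IBA libraries (1.67 ± 0.23, adjusted p = 0.00294). Both stood clear of SA in every IBA library and were called without each library in turn. Gpd2, the mitochondrial glycerol-3-phosphate dehydrogenase, rose by 1.96-fold (0.97 ± 0.21, adjusted p = 0.0169), lost without IBA replicate 1 or 3 (adjusted p = 0.0726 and 0.0572). On the falling side, Mdh1, cytosolic malate dehydrogenase, had 135, 139 and 115 CPM in the SA libraries and 73.9, 70.7 and 67.4 in the IBA libraries (-0.88 ± 0.17, adjusted p = 0.0116), lost without IBA replicate 3 (adjusted p = 0.0662). Nampt, the rate-limiting enzyme of NAD salvage, had 157, 163 and 242 CPM in the SA libraries and 71.6, 95.9 and 84.5 in the IBA libraries (-1.16 ± 0.21, adjusted p = 0.00899) and was called without each library in turn. Tkt, transketolase of the pentose phosphate pathway, had 85.3, 96.3 and 55.4 CPM in the SA libraries and 35.2, 51.0 and 37.5 in the IBA libraries (-0.93 ± 0.20, adjusted p = 0.0167), lost without IBA replicate 1 or 3 (adjusted p = 0.0788 and 0.0893).

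SA replicate 2 stood apart from the other SA animals in several liver genes, picked out after their values were seen. It had the highest SA value of Cps1 (13658 CPM against 6054 and 2643), Igf1 (1012 against 79.3 and 109.8), Noct (636 against 189.7 and 84.8) and the Fkbp5 unit (783 against 194 and 288). It had the lowest of CYP7A1 (7.15 against 136 and 158), G6pc (371 against 2041 and 1317) and Igfbp1 (226 against 2354 and 1150.4). It also had the lowest rank correlations with the other SA libraries, 0.901 and 0.909. It was the shallowest SA library, and the part of depth in these values was not tested. Over the 135 single-gene falls, SA replicates 1, 2 and 3 were the highest SA library in 41, 50 and 44 and the lowest in 47, 43 and 45. Over the 127 rises they were highest in 46, 43 and 38 and lowest in 30, 49 and 48.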
